A study of Mus musculus with 4 samples.

Results

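The genes described here are the 3 Sox factors that drive cartilage formation, Sox9, Sox5 and Sox6, and 7 genes of the proteins that chondrocytes secrete into the cartilage matrix: Acan, Hapln1, Matn1, Matn3, Matn4, Comp and Mia. They were chosen by symbol, as all probe sets that the platform annotation gives to these 10 genes, and amount to 25 of the 34945 probe sets that name a gene and to 10 of 18193 genes. The study measured mouse embryos at E13.5, a stage of fetal muscle growth, in RNA of limb muscle or back muscle, with 1 Affymetrix array per group. The 4 groups were MyoD-/- limb, called MyoD-null here, WT (wild-type) limb, Myf5-/- back, called Myf5-null, and WT back, and the labels name BALB/c for all 4. MyoD and Myf5 are regulators that set progenitor cells on the path to muscle. The sources used here do not give how many embryos an array stands for. There is thus no error between replicates and no p-value below, and every difference is between single arrays.

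Cartilage arises when mesenchymal cells condense and switch on Sox9, which binds DNA through an HMG box and activates the genes of the cartilage matrix. Sox5 and Sox6 are close relatives of each other that lack an activation domain of their own and bind beside Sox9 at the same genes. The matrix that follows is a collagen network filled with aggrecan (Acan), a proteoglycan that hyaluronan and the link protein Hapln1 hold in large aggregates, while matrilins and Comp connect the fibrils to the rest. Limb bones and vertebrae both begin as such cartilage, next to the muscle sampled here.

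The signals are intensities rescaled so that each array has a 2% trimmed mean of 500, and a signal under 100 is treated as no level. A gene was read by its brightest probe set, ranked by its mean log2 signal in all 4 arrays, and was counted as higher or lower when the floored signals differed at least 2-fold and the brighter array reached 200. Because no replicate exists, each log2 ratio was set beside a probe spread, the median over genes of the SD between a gene's own probe sets. It was 0.35 in the limb pair, 0.32 in the back pair and 0.35 between the WT arrays, and it covers probe noise and not animals. All 10 genes reached 100 in at least 1 array of every pair.

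The labels were checked first. Myod1 was lower in the limb array labelled MyoD-null, at 688 against 1438 in WT limb. Myf5 was not lower in the back array labelled Myf5-null, at 583 against 508 in WT back, so that genotype rests on its label alone and the array is named by its label below. The sources used here do not say whether these probes lie in the deleted part of either gene, so they may check nothing. All 10 muscle markers read (Myog, Actc1, Acta1, Myh3, Tnnt1, Ttn, Des, Chrna1, Mylpf and Ckm) were above 100 in all 4 arrays. The signal ratio between the 3 prime and 5 prime ends of Gapdh, a measure of RNA and labelling quality, was 8.06 in MyoD-null limb and 12.2 in WT limb, and 9.46 in the back array labelled Myf5-null and 6.45 in WT back.

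Before the values, the DNA just upstream is shown for 4 matrix genes, 3 that were lower in the back array labelled Myf5-null (Acan, Hapln1, Mia) and Matn1, which came closest to that count without reaching it. The sequences are from RefSeq on GRCm38.p6, read 5′ to 3′ on the strand of the gene and ending at the last base before the gene's annotated start. Of the 10 genes, 6 have such sequence in the table used, of which Matn3 and Matn4 are not shown, and Sox9, Sox5, Sox6 and Comp are named only. The Hapln1 stretch is 143 bases long because its start site in that table lies inside the annotated gene, and the other 3 are 250 bases. The Acan stretch also lies within the noncoding gene Gm26633. Capitals mark any match, on either strand, to 5 short words that were picked after the windows had been looked at. ACAAT and ACAAAG are Sox-type words, CCAAT is the CCAAT box, GGGCGG is the GC box and TATAAA is the TATA word.
Acan, chr7:79052976-79053225, plus strand: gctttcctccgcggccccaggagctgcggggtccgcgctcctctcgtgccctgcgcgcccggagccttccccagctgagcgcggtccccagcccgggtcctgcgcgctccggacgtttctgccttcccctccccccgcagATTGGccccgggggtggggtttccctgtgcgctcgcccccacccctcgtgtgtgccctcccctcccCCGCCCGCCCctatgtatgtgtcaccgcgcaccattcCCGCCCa
Hapln1, chr13:89540386-89540528, plus strand: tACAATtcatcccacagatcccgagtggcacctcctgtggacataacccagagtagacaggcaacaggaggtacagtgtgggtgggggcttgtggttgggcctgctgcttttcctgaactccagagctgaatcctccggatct
Matn1, chr4:130944135-130944384, plus strand: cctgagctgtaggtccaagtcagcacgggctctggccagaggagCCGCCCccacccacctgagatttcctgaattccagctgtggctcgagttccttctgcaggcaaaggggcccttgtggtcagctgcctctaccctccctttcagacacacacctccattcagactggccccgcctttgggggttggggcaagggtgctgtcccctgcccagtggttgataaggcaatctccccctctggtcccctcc
Mia, chr7:27181150-27181399, minus strand: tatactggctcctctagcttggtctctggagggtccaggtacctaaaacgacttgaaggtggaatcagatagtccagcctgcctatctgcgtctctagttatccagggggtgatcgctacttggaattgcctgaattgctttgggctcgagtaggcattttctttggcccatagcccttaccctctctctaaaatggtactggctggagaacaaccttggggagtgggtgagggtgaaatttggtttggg

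The 4 stretches share little in base composition. Acan has 74.4% G and C and 26 CpG pairs, Matn1 62.0% and 4, Hapln1 55.2% and 2, and Mia 50.4% and 4. The shares below are over 19827 upstream windows. A Sox-type word was found only in Hapln1, where ACAAT begins 142 bases before the gene. That word is in 18.8% of windows of 143 bases and 30.7% of windows of 250 bases, and ACAAAG in 10.2% and 17.6%. Acan held 3 GC boxes, of which 2 overlap, and 1 CCAAT box, Matn1 held 1 GC box, and Mia held none of the 5 words. A GC box is in 26.8%, a CCAAT box in 34.4% and a TATA word in 14.9% of windows of 250 bases. A match is a run of letters and not a bound site, and the absence of a word says only that it is not in the window.

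**Figure D1:**
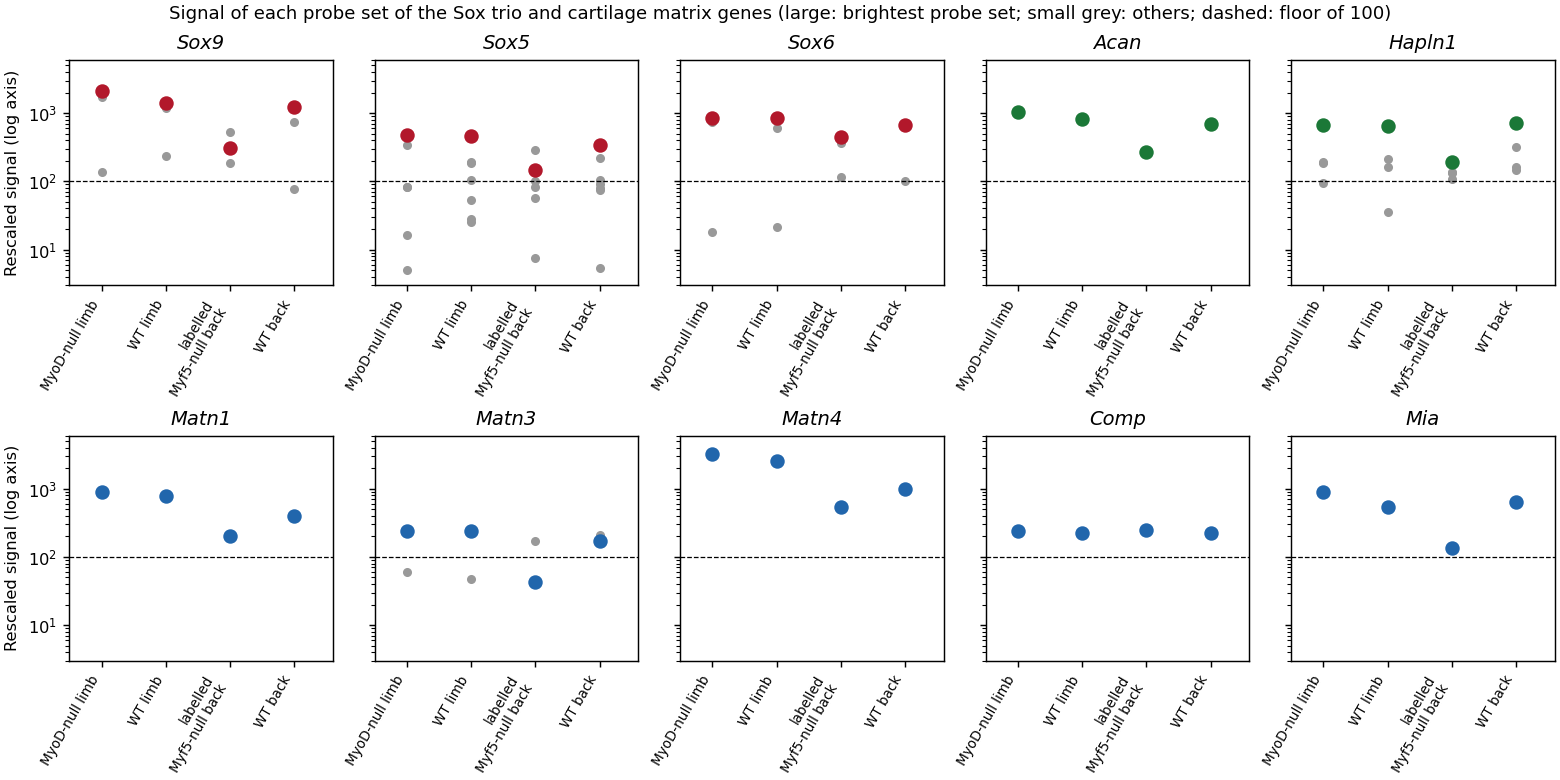
Rescaled signal on a log axis of every probe set of the 10 genes in the 4 arrays, with MyoD-null limb left of WT limb and the back array labelled Myf5-null left of WT back. Large points are the brightest probe set of a gene, small grey points its other probe sets, and the dashed line is the floor of 100. In 9 of the 10 panels the large point of the back array labelled Myf5-null is the lowest, and in Comp the 4 points lie between 222 and 250.

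Across the 4 arrays most of the Sox factors and matrix genes were lowest in the back array labelled Myf5-null, by their brightest probe sets. That array was the lowest of the 4 for 9 of the 10 genes, whereas it was the lowest for 19.3% of all genes that reached 100 in at least 1 array. Comp was the exception. Of the 10 genes, 6 had the full order of MyoD-null limb highest, then WT limb, then WT back, then the back array labelled Myf5-null, an order found in 4.63% of all such genes. The 6 were Sox9, Sox5, Acan, Matn1, Matn3 and Matn4, but Sox5 and Matn3 are among them by their brightest probe sets alone. The next of Sox5 gave 443 in MyoD-null limb, 191 in WT limb, 289 in the back array labelled Myf5-null and 220 in WT back. The other one of Matn3 was lowest in the limb arrays, at 60.8 in MyoD-null limb and 47.5 in WT limb. The steps within this order were unequal: the step between MyoD-null limb and WT limb was under the probe spread of 0.35 in 5 of the 6, and the step down to the back array labelled Myf5-null was above it in all 6. Signals of different genes come from different probes and are not set against each other.

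In the back array labelled Myf5-null, Sox9, Sox5, Acan, Hapln1 and Mia were lower than in WT back by the 2-fold rule and none of the 10 was higher. These 5 of 10 stand beside 2.48% of all 14684 genes read that were lower and 5.50% that were higher by the same rule. Of the 10 genes 9 had a log2 ratio below 0, against 46.2% of all genes, and their median was -1.10, against 0.05. The ratio exceeded the probe spread of 0.32 in 9 of the 10. In bulk tissue, fewer cartilage cells and less RNA of these genes per cell cannot be told apart.

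Among the Sox factors, Sox9 had a signal of 304 in the back array labelled Myf5-null and 1247 in WT back (log2 ratio -2.04). It was 2078 in MyoD-null limb and 1419 in WT limb, so the back array labelled Myf5-null stood far below the other 3. The size of the difference depended on the probe set. The second, almost as bright in the limb, gave 538 in the back array labelled Myf5-null and 750 in WT back (-0.48), and the last, a dim one, went the other way, at 184 against 76.6 (0.88, from under the floor). When Sox9 was taken as the median over its probe sets the ratio was -0.48, under the 2-fold rule.

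Sox5, a partner of Sox9, was 149 in the back array labelled Myf5-null and 344 in WT back (-1.21) in its brightest probe set, whose name marks probes shared between transcripts. The next brightest gave 289 against 220 (0.40). The other 5 probe sets of Sox5 were under 100 in at least 1 of the back arrays, so the lower value rests on the brightest alone. The ratio was -0.78 with a floor of 200, -0.84 with a pseudocount and 0.40 without probe sets of shared probes, so Sox5 did not count as lower in those settings, nor with the median over probe sets. Sox6, the other partner, also made by muscle and red blood cell precursors, was 446 in the back array labelled Myf5-null and 667 in WT back (-0.58). A dim probe set of Sox6 was near the floor in both (0.23). Its 2 other bright probe sets went the same way, at 361 against 706 (-0.97) and 398 against 656 (-0.72). Sox6 did not reach 2-fold in any probe set, but its 3 bright probe sets agreed in direction and each exceeded the probe spread.

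In the proteoglycan aggregate both genes were lower. Acan, the core protein of aggrecan, was 268 in the back array labelled Myf5-null and 695 in WT back (-1.37). It is read by 1 probe set, which does not carry the mark of shared probes, and it met the 2-fold rule in the main setting. It also met the rule after quantile normalization (-1.47), after loess (-1.42) and with a pseudocount (-1.11). The rest of the 8 alternatives left the ratio at -1.37 and were no check of it. Both signals lie above every floor tried, no other probe set enters, and the arrays had nearly equal trimmed means before rescaling. Hapln1, the link protein that locks aggrecan to hyaluronan, was 194 in the back array labelled Myf5-null and 723 in WT back (-1.90). Its 3 dimmer probe sets had the same direction, with 139 against 321 (-1.21), 132 against 164 (-0.32) and 109 against 145 (-0.41). All 4 probe sets of Hapln1 thus read lower, by unequal amounts, and their median was -0.81, under the 2-fold rule.

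The matrilins are adaptor proteins that link collagen fibrils and aggrecan. Matn1, the cartilage matrilin, was 203 in the back array labelled Myf5-null and 405 in WT back, a 1.995-fold difference that fell just short of the rule. It passed the rule after quantile normalization (-1.17) and after loess (-1.12). Matn4, a matrilin also made outside cartilage, was 537 in the back array labelled Myf5-null and 997 in WT back (-0.89). Matn3, which is largely restricted to cartilage, was 42.6 in the back array labelled Myf5-null, under the floor, and 174 in WT back (-0.80 with the floor). Its value moved with the floor, to -1.80 at 50 and 0.00 at 200. It counted as lower without rescaling (-2.03), where the same floor lies lower relative to the signals. Its second probe set gave 173 against 207 (-0.25). All 3 matrilins were thus lower in their brightest probe set, none by the 2-fold rule in the main setting.

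Mia, a small protein secreted by chondrocytes and by melanoma cells, was 137 in the back array labelled Myf5-null and 645 in WT back (-2.23), with 905 in MyoD-null limb and 548 in WT limb. Its only probe set carries the mark of shared probes, so no value is left without such probe sets. Comp, a thrombospondin of cartilage and tendon, did not follow the others. It was 250 in the back array labelled Myf5-null and 222 in WT back (0.17), within the probe spread, and its sign turned with quantile normalization (-0.03) and loess (-0.01). Both signals of Comp lie above every floor tried. With 1 array per group, how small a difference in Comp could be detected is unknown.

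**Figure D2:**
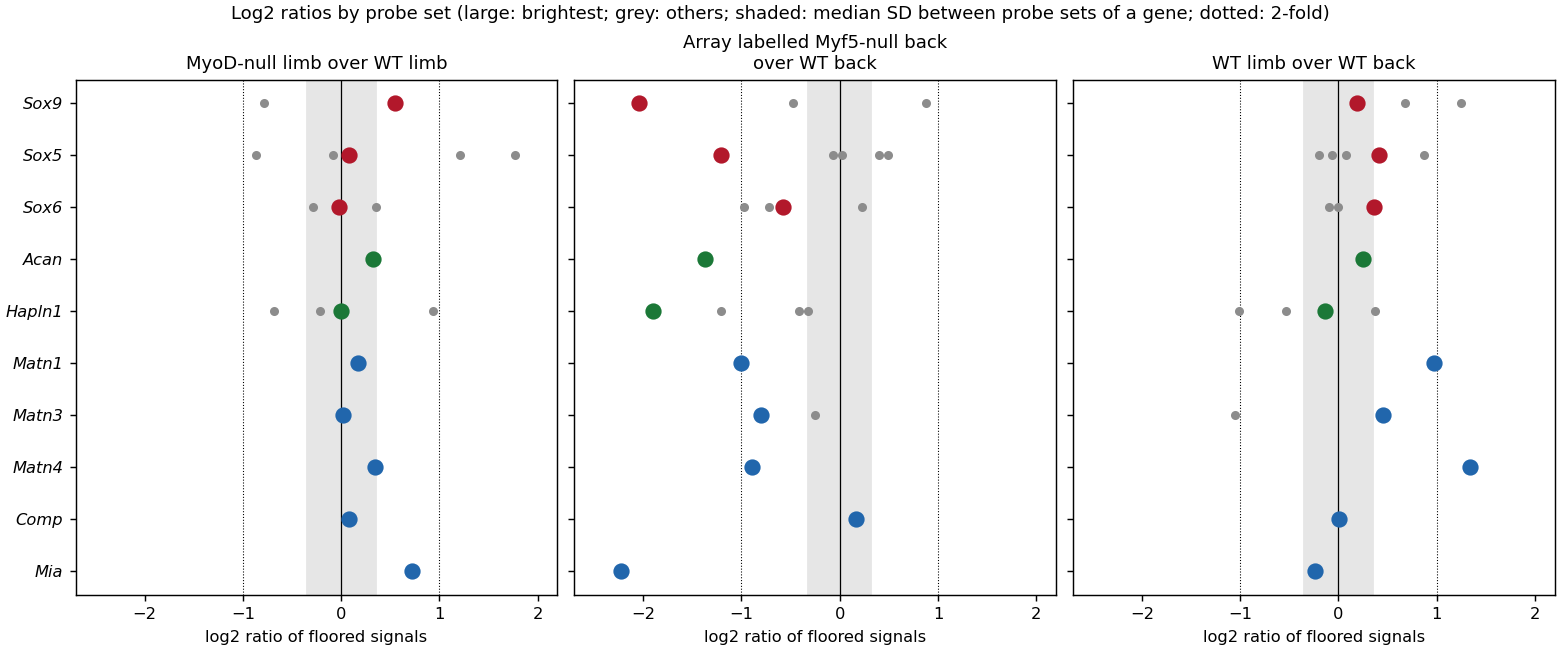
Log2 ratio of floored signals (x axis) for each of the 10 genes (rows) in 3 comparisons, with large points for the brightest probe set, grey points for other probe sets at 100 or more in 1 of the arrays, shading for the median SD between probe sets of a gene and dotted lines at 2-fold. In the back pair 9 large points lie left of the shading, and in the limb pair only those of Sox9 and Mia lie outside it, on the right.

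Other cartilage genes were read beside these 10. Of the 7 cartilage collagens, 4 were lower by the 2-fold rule in the back array labelled Myf5-null and 6 lay below 0, with a median of -2.16. Of 11 other matrix proteins, 2 were lower, 0 higher and 9 below 0, with a median of -0.45. They were Cnmd (chondromodulin, an angiogenesis inhibitor of cartilage), at 255 against 884 (-1.80), and Cytl1, a small secreted protein of chondrocytes, at 336 against 917 (-1.45). Prg4, lubricin of joint surfaces, had the opposite sign, at 144 against 65.0 (0.53 with the floor).

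Of 11 other regulators of chondrocytes that were read, 2 were lower, 1 was higher and 6 lay below 0, with a median of -0.49. Pax1, a factor of the sclerotome from which vertebrae form, was 157 in the back array labelled Myf5-null and 418 in WT back (-1.41). Runx3 was 63.5 against 206, at least 2.06-fold lower, but its second probe set gave 192 against 11.6. Trps1 was 733 against 1451 (-0.99) while its 3 dimmer probe sets lay between -0.20 and 0.12. Gdf5, a ligand of forming joints, was the one that was higher, at 267 against 53.2, at least 2.67-fold.

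The enzymes and transporters that build the sulphated chains of aggrecan had 1 of 9 lower, 0 higher and 8 below 0, with a median of -0.16. The lower gene was Papss2, which makes the sulphate donor, at 308 in the back array labelled Myf5-null and 793 in WT back (-1.37), with 39.7 against 240 (-1.26 with the floor) in a probe set of shared probes and -0.04 and -0.20 in the others. Chsy1, a chondroitin synthase, was 3473 against 6119 (-0.82). None of 5 proteases of the Adamts family that cut aggrecan or versican passed the rule, and Adamts4, an aggrecanase, was 489 against 300 (0.70). Of hypertrophic cartilage, the late stage before bone, 3 genes could be read in the back and 0 passed the rule. Its collagen gene Col10a1 was under 100 in all 4 arrays, with a highest signal of 11.3.

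Relatives of the 10 genes by sequence lay near the median of all genes. Of 16 relatives read in the back, 0 were lower and 1 was higher by the rule, 7 lay below 0, and the median was 0.05. Sox13, from the same group as Sox5 and Sox6, was 188 in the back array labelled Myf5-null and 331 in WT back (-0.82). Matn2, the matrilin of many soft tissues, was 227 against 388 (-0.77), and its other probe set, at 135 against 372 (-1.46), differed by more than 2-fold. Ncan, a relative of aggrecan in the nervous system, was 194 against 16.2 (0.96 with the floor) but under the floor against 191 (-0.93) in another probe set. Bcan, a relative of aggrecan in brain, was the higher one, at 285 against 10.9, at least 2.85-fold. A dimmer probe set of Sox10, at 51.2 against 268 (-1.42 with the floor), also differed by more than 2-fold. So did one of Thbs1, at 65.1 against 242 (-1.27 with the floor), while the brightest of these 2 genes gave 0.14 and -0.05. The count of 0 lower among the relatives thus holds for their brightest probe sets only. No test of the difference between the 10 genes and their relatives was possible with 1 array per group.

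Markers of other cell types were read in the same arrays. Muscle markers were lower in the back array labelled Myf5-null in all 10 of 10, 2 by the 2-fold rule, with a median of -0.56 and a summed signal of 94885 against 140238 in WT back. Tendon markers had 4 of 6 below 0 and a median of -0.25, with 5342 against 6306 summed. Schwann cell markers had 3 of 4 below 0 and a median of -0.45, with 3624 against 4889. Melanocyte markers, which bear on Mia, had 4 of 6 above 0 and a median of 0.48, with 1236 against 895 summed. Tyrp1 was under 100 in the back array labelled Myf5-null, and Tyr (94.3) and Mlana (39.2) were under 100 in WT back. Osteoblast markers had a median of -0.10, neural markers 0.06, erythroid markers -0.08 and epidermis markers 0.07, with Dmp1 of bone under 100 in all 4 arrays and Ibsp of bone and Sox2 of neural cells under 100 in the back array labelled Myf5-null. Alpl of bone was higher there, at 400 against 109, and so was Dct of melanocytes, at 375 against 126. Pmel of melanocytes went the other way, at 126 against 241 (-0.94), as did a second probe set of Tyr, at 26.6 against 226. Stmn2 of neurons was lower, at 204 against 444 (-1.12), with 190 against 171 in its other probe set. Of the neural markers 4 of 7 lay above 0, among them Map2 at 304 against 174 (0.80) and Sox1 at 173 against 15.3 (0.79 with the floor). The part of these cell types, and of the higher Gapdh ratio of that array, in the lower values of the 10 genes was not tested.

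**Figure D3:**
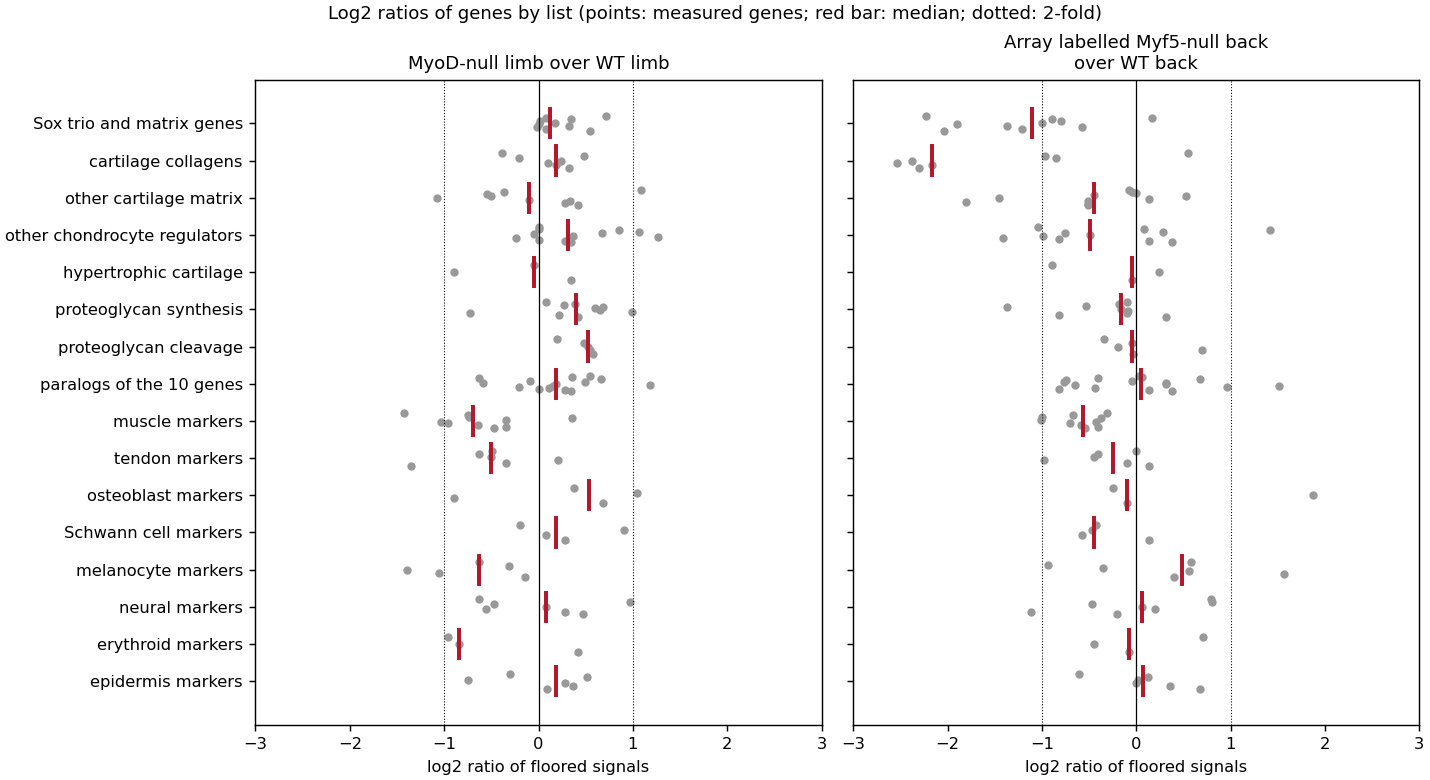
Log2 ratio of floored signals (x axis) of the measured genes of each list (points) with the list median (red bar), in MyoD-null limb over WT limb and in the back array labelled Myf5-null over WT back. Dotted lines mark 2-fold. In the back pair the medians of the Sox trio and matrix genes (-1.10) and of the cartilage collagens (-2.16) are the furthest left, and in the limb pair both lie right of 0, at 0.12 and 0.19.

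In the limb, the MyoD-null array was set against its WT counterpart. None of the 10 genes was lower and none was higher by the 2-fold rule, beside 5.19% of all 14496 genes read that were lower and 2.30% that were higher. With their brightest probe sets, 9 of the 10 lay above 0, against 46.1% of all genes, but only Sox9 and Mia exceeded the probe spread of 0.35. Their median was 0.12, against -0.04 for all genes. Sox9 was 2078 in MyoD-null limb and 1419 in WT limb (0.55), and its second probe set agreed at 1724 against 1202 (0.52), while the dim one gave 138 against 238 (-0.78). Mia was 905 in MyoD-null limb and 548 in WT limb (0.72).

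The remaining genes differed little in the limb. Acan was 1031 in MyoD-null limb and 827 in WT limb (0.32), Matn4 was 3207 against 2532 (0.34), and Matn1 was 888 against 791 (0.17). Hapln1 was 660 against 658, with dimmer probe sets between -0.68 and 0.93, and Sox6 was 842 against 854 (-0.02), with others at -0.29 and 0.35. Matn3 was 241 against 238 and Comp 236 against 223 (0.08). Sox5 was 485 against 459 (0.08) in its brightest probe set, but 443 against 191 (1.21) in the next and 341 against 53.1, at least 3.41-fold higher, in another. A dim one of shared probes went the other way, at 81.5 against 183 (-0.87). Without probe sets of shared probes Sox5 would therefore count as higher in MyoD-null limb, the only one of the 10 to do so in any of the settings tried.

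Other cartilage lists did not all lie on one side of 0 in the limb. Of 9 other matrix proteins, 5 lay below 0 and the median was -0.10, with Prg4 lower, at 97.0 in MyoD-null limb and 211 in WT limb (at least 2.11-fold), and Lum, a small proteoglycan of connective tissue, higher, at 7791 against 3668 (1.09). Of 3 hypertrophic genes 2 lay below 0, with a median of -0.05. Of 10 genes of proteoglycan synthesis, 9 lay above 0 with a median of 0.40. Chst3, a sulphotransferase, was 199 in MyoD-null limb and 61.9 in WT limb (0.99 with the floor). Papss2 was 1551 against 968 (0.68), while its other probe sets lay between -0.30 and 0.00. The exception was Chpf, at 356 against 589 (-0.73). All 5 aggrecan and versican proteases lay above 0 in their brightest probe sets, with a median of 0.52. Dimmer probe sets gave -0.84 for Adamts4, 0.23, -0.22 and -0.61 for Adamts5, and -0.35 and 1.11 for Adamts9. Among 12 other chondrocyte regulators 10 lay above 0 and 2 were higher by the rule. These were the BMP receptor Bmpr1b at 1374 against 661 (1.06), though a second probe set gave 0.07, and Pax9 at 241 against 61.5, at least 2.41-fold. The other probe sets of Pax9 gave 0.11 and 0.51 with the floor, so its count rests on 1 probe set. Muscle markers were lower in 9 of 10, with a median of -0.69 and a summed signal of 47313 against 73550, and tendon markers in 5 of 6, with a median of -0.50. Melanocyte markers were below 0 in 5 of 5, with a median of -0.63 and 595 against 1187 summed. Of these, Tyr (52.7), Pmel (93.1) and Mlana (16.0) were under the floor in MyoD-null limb. The sums also hold Tyrp1, under 100 in both limb arrays, at 50.9 against 66.8. The part of these muscle, tendon and melanocyte markers in the small limb differences of Sox9 and Mia was not tested.

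The WT arrays compare the tissues without a mutation. Matn4 had a signal of 2532 in WT limb against 997 in WT back (1.34), and it was the only one of the 10 to pass the 2-fold rule, beside 5.30% of all 14605 genes read that were higher and 3.50% that were lower. Matn1 came close, with 791 in WT limb against 405 in WT back (0.97), and passed with quantile normalization (1.01). Matn3 was 238 against 174 (0.45) in its brightest probe set and 47.5 against 207, at least 2.07-fold lower, in the other, so its direction cannot be given. Of the Sox factors, Sox9 was 1419 in WT limb and 1247 in WT back (0.19, with 0.68 and 1.25 in its dimmer probe sets), Sox5 459 against 344 (0.41) and Sox6 854 against 667 (0.36). Acan (827 against 695), Hapln1 (658 against 723), Comp (223 against 222) and Mia (548 against 645) stayed within the probe spread of 0.35 in their brightest probe sets, but a dim probe set of Hapln1 gave 160 against 321 (-1.01). Muscle markers were lower in WT limb in 9 of 10, with a median of -0.85. WT limb and WT back also serve as the controls of the mutant comparisons, so the 3 comparisons are not independent.

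**Figure D4:**
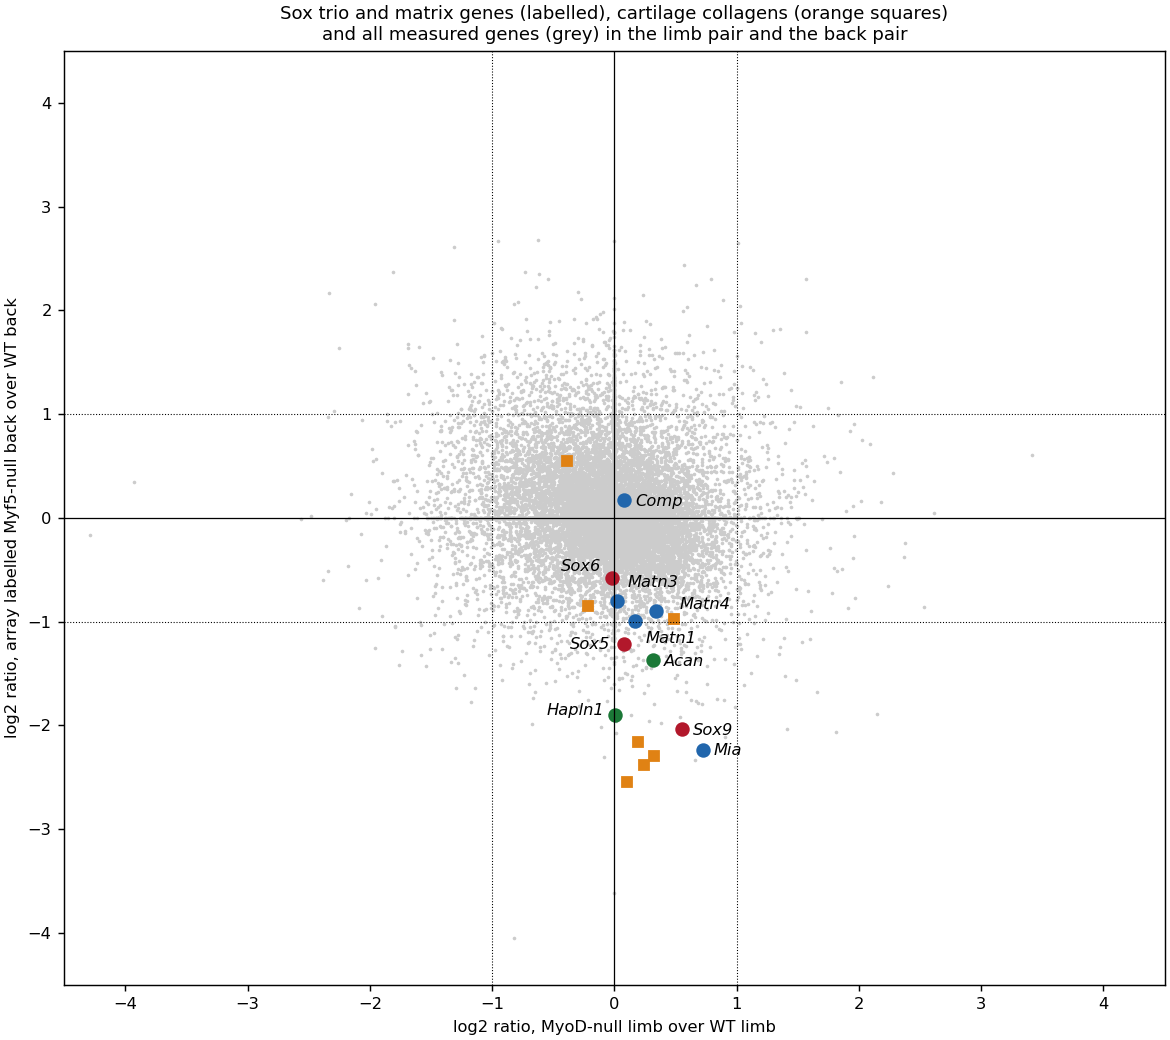
Log2 ratio in MyoD-null limb over WT limb (x axis) against log2 ratio in the back array labelled Myf5-null over WT back (y axis) for the 10 genes (labelled circles), the cartilage collagens (orange squares) and all genes at 100 or more in 1 of the 4 arrays (grey), with dotted lines at 2-fold. Of the 10 genes, 9 lie below 0 on the y axis, and all 10 lie between -0.02 and 0.72 on the x axis.

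Set side by side, the 2 pairs, which share no array, gave log2 ratios of 0.55 in the limb and -2.04 in the back for Sox9, 0.72 and -2.23 for Mia, 0.32 and -1.37 for Acan, and 0.00 and -1.90 for Hapln1. By brightest probe sets, the back ratio minus the limb ratio ran from -2.96 for Mia to -0.56 for Sox6, apart from Comp. Comp had 0.08 in the limb and 0.17 in the back. Some dimmer probe sets went the other way, such as that of Sox9, at -0.78 in the limb and 0.88 in the back. The share of all genes with a back ratio below the limb ratio was not computed. The difference between pairs was not tested.

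Genes of like profile were sought by the distance between log2 signals centred over the 4 arrays, among 12416 genes that reached 200 in at least 1 array. The profile of Sox9 was that of its brightest probe set alone, while its others gave -0.48 and 0.88 in the back pair. Nearest to it was Col9a1, a chain of the collagen that coats cartilage fibrils, at a distance of 0.296. Its signals were 7082 in MyoD-null limb, 6201 in WT limb, 1224 in the back array labelled Myf5-null and 5480 in WT back. The next were Glrb, Ptp4a2, Foxc2 and Anks1, at 0.404 to 0.489. Glrb (29.9), Foxc2 (23.2), Col9a2 (16.9) and Col11a2 (22.6) were under the floor in the back array labelled Myf5-null, which limits their drop. Ptp4a2 has 3 dimmer probe sets that gave between -0.40 and 0.10 in the back pair, against -1.61 in its brightest, so its place rests on 1 probe set. Of the other cartilage collagens, Col9a2 was in place 13, Col9a3 in place 26, Col11a2 in place 35 and Col2a1 in place 46, while Col11a1 in place 6668 and Col27a1 in place 8923 were far from Sox9.

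The mean profile of the 10 genes was 0.65 in MyoD-null limb, 0.42 in WT limb, -1.13 in the back array labelled Myf5-null and 0.06 in WT back, in log2 units about each gene's own mean. Nearest to it were Rtl5, Scin, Tnfaip6, Col11a2 and Zfp937, at 0.094 to 0.244. Tnfaip6, a protein that binds hyaluronan, had 577 in MyoD-null limb, 579 in WT limb, 203 in the back array labelled Myf5-null and 415 in WT back. Col11a2, a cartilage collagen chain, had 347 in MyoD-null limb, 248 in WT limb, 22.6 in the back array labelled Myf5-null and 196 in WT back. The other 6 cartilage collagens were further away, with Col9a1 in place 337, Col9a3 in place 720, Col2a1 in place 809, Col9a2 in place 992, Col11a1 in place 7921 and Col27a1 in place 8428. The distance counts the size of a difference as well as its direction. In the back pair Col9a1 was at -2.16, Col9a3 at -2.38, Col2a1 at -2.30 and Col9a2 at -2.54, against a median of -1.10 for the 10 genes. Such distances rest on 4 values per gene and describe these arrays only.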

How the data were processed

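Values are intensities on a linear scale, 1 MAS5 signal per probe set and array, as the authors deposited them, per the submitters' processing notes. The sources used here give no software version, scaling target or detection calls. Per the labels' protocols, total RNA was extracted with Trizol and labelled with biotin. Deposited columns had 2% trimmed means of 1477 to 1479.

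Groups came from sample titles, 1 array each, so no test was run, and the number of arrays limits the precision. Arrays were rescaled to a 2% trimmed mean of 500, leaving out control probe sets. Lower signals were then raised to a floor of 100 before log2 ratios were formed (Python 3.11.15, pandas 2.3.3, scipy 1.17.1, statsmodels 0.14.6). Probe sets were named by the platform annotation, and 932 with several genes were not used. The steps were tested on simulated data.

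Named genes are the 10 genes in every probe set, up to 4 per list with the largest ratios plus 1 in the opposite direction, markers under 100, and the 5 nearest genes by profile, passing over clone-type names. The genes and 15 lists were chosen with earlier results of these data known. Alternatives were no rescaling, quantile normalization, loess (span 0.3), floors of 50 and 200, a pseudocount of 100, the median over probe sets, and dropping probe sets named as sharing probes.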

Additional observations from a re-analysis of the deposited data

Results flagged for a closer look

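By their brightest probe sets, Sox9 and Mia had log2 ratios of opposite sign in the 2 mutant pairs, each larger than the median probe spread over all genes. For Sox9 the ratio was 0.55 in the limb, MyoD-null over WT, and -2.04 in the back, labelled Myf5-null over WT. The other probe sets of Sox9 gave 0.52 and -0.78 in the limb and -0.48 and 0.88 in the back, so the last of them had both signs turned, and with the median over probe sets Sox9 was -0.48 in the back and no longer counted as lower. For Mia, which has 1 probe set, it was 0.72 in the limb pair and -2.23 in the back pair. The difference between the pairs was not tested, since each rests on 1 array per group.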

How the results depend on the processing

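With 1 array per group, signals near the floor, unequal probe sets of one gene and the missing replicates limit every value. The number of the 10 genes lower in the back array labelled Myf5-null was 5, and it was 4 to 6 under 6 of the 8 alternatives. Of these 6, the floor of 50 was no check, because a signal under 100 against 200 or more already counted. Leaving out the rescaling only set the cut-offs lower relative to the signals, so it could add genes but hardly remove any. The number fell to 2 with the median over probe sets (median log2 ratio -0.73, against -1.10). It fell to 3 without probe sets of shared probes, where Mia has no value and Sox5 turned to 0.40. In MyoD-null limb the number higher was 0, and 1 without shared probes. In WT limb over WT back the number higher was 1, and 2 with quantile normalization and with loess, and the number lower was 0, and 1 without shared probes. Counts over all genes moved too. In the limb pair 1087 genes were counted in either direction, against 3224 without rescaling, 293 with a floor of 200, 495 with a pseudocount and 609 with the median over probe sets. In the back pair 1172 were counted, against 3360, 274, 602 and 697 in the same order, and between the WT arrays 1285, against 3473, 504, 681 and 769. The share of counted genes that were higher was 68.9% in the back pair, 50.3% after quantile normalization and 48.8% after loess, and 30.7%, 45.5% and 47.2% in the limb pair. Of 237 single-gene values under the alternatives, 218 stayed within the probe spread of the main value and the rest moved beyond it. Many of the 218 could hardly move, so they do not measure stability. No rescaling and other floors leave a ratio nearly as it was where both signals lie above the floor. The 2 settings on probe sets leave Acan, Matn1, Matn4 and Comp unchanged, since each has only 1 probe set. The sign changed in 8 of the 237 values (Comp and Sox5 in the back, Comp, Matn3 and Sox5 between the WT arrays). Of these only Sox5 in the back had counted as lower. No paired analysis was possible because each group has 1 array.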
